A study of Homo sapiens with 4 samples.

Results

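The BCL2 family decides whether the outer membrane of the mitochondrion is opened during apoptosis. The genes described here are 10 members of it, taken by symbol from a list that covers the anti-apoptotic genes *MCL1*, *BCL2* and *BCL2L1*, the effectors *BAX* and *BAK1*, and the BH3-only genes *BCL2L11*, *BMF*, *BBC3*, *PMAIP1* and *BIK*. Of these, 9 were among the 16811 genes of the expression table, and *BCL2* was not analysed here. RNA was sequenced from MCF12A, an epithelial cell line of human breast that does not form tumours, in 2 libraries of wild-type cells and 2 libraries of edited cells. The edited cells had lost the p2 promoter of *C1orf132*, a long non-coding RNA gene that hosts miR-29b2 and miR-29c, by CRISPR/Cas9 with a pair of guide RNAs, and were obtained from single sorted GFP-positive cells. For MCF12A cells the methods give a medium with horse serum, EGF, hydrocortisone, cholera toxin and insulin. They name no treatment besides the transfection used for editing. They do not say whether wild-type cells were also transfected, sorted or cloned. If not, these steps cannot be told apart from the deletion. The study's methods do not say whether the 2 edited libraries came from the same colony, so the spread between them may not cover the spread between clones. The transcript of the targeted gene was not analysed here, so the labels were not checked against it.

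In a living cell, anti-apoptotic members such as MCL1 and BCL-XL, the product of *BCL2L1*, bind and hold the effector proteins BAX and BAK1. BH3-only proteins are induced or activated by stress and either block the anti-apoptotic proteins or activate the effectors directly. Once free, BAX and BAK1 form pores in the outer mitochondrial membrane, cytochrome c leaves, and caspases are switched on. In mammary epithelium, BIM (encoded by *BCL2L11*) and BMF are known for their part in the death of cells that have lost contact with the matrix and in clearing the lumen of the developing duct.

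The listed genes *MCL1*, *BCL2*, *BMF* and *BBC3* are known targets of miR-29, a family of microRNAs that lower the level of their target mRNAs. The mature miR-29 sequences are shown because they share a single seed (bases 2 to 8, in capitals), against which the 3′ untranslated regions (UTRs) of the family were searched. They are from RefSeq, and they were placed on GRCh37 by an exact match of their hairpins. miR-29c-3p lies at chr1:207975210-207975231 on the minus strand. miR-29b-3p is encoded both at chr1:207975795-207975817 and at chr7:130562226-130562248, each on the minus strand, and miR-29a-3p at chr7:130561507-130561528, also on the minus strand.
hsa-miR-29c-3p: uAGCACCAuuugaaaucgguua
hsa-miR-29b-3p: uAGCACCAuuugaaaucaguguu
hsa-miR-29a-3p: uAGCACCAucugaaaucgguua

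The reverse complement of this seed, TGGTGCT, was searched on the transcript strand of the canonical 3′ UTR of each gene. It was found in 4 of the 9 measured members, *MCL1*, *BAK1*, *BMF* and *BBC3*, and *BMF* held 2 copies. The 5 sites follow as 23 bases of GRCh37 read 5′ to 3′ along the transcript, with the seed match in capitals. The site of *MCL1* lies at chr1:150548514-150548536 on the minus strand, that of *BAK1* at chr6:33541384-33541406 on the minus strand, those of *BMF* at chr15:40382595-40382617 and chr15:40381817-40381839 on the minus strand, and that of *BBC3* at chr19:47724630-47724652 on the minus strand.
MCL1: ggctagtctaaccaTGGTGCTat
BAK1: acctcaacattgcaTGGTGCTag
BMF, first site: agaaaagacaacatTGGTGCTaa
BMF, second site: aatgatttagatctTGGTGCTgg
BBC3: tggcctcaggccccTGGTGCTtc

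In *MCL1*, *BAK1* and the first site of *BMF* the match is followed by an A. No match was found in the 3′ UTRs of *BCL2L1* (1491 bases), *BAX* (162 bases), *BCL2L11* (4213 bases), *PMAIP1* (1552 bases) or *BIK* (407 bases), which says only that these letters are not in those windows. A match of 7 letters is common in long UTRs. Of the 12420 genes of the table whose canonical 3′ UTR was read, 1997 (16.1%) held at least 1. Among UTRs within 10% of the same length, a match was present in 31.7% for *BMF* (3897 bases), 23.7% for *MCL1* (2817 bases), 10.9% for *BAK1* (1251 bases) and 10.9% for *BBC3* (978 bases). A match is a description of the sequence, and binding by miR-29 was not measured in these libraries.

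The expression values are normalised values that the authors had scaled between libraries and for transcript length, so that levels of different genes may be set side by side. They sum to between 1444640 and 1655440 per library. Gene counts could not be recovered for most genes. From genes with a single transcript, 1 read on 1 kb of transcript was estimated to be worth 0.0975 to 0.118 in the 4 libraries, and other solutions were nearly as good, so the libraries are not ranked by depth. The number of reads behind a member ranged from about 8 (*BMF* in edited replicate 1) to about 15584 (*MCL1* in edited replicate 2), and these estimates are approximate. Levels were compared with limma on log2(value + 1), and a gene was called at an adjusted p under 0.05. Among the 9590 genes whose mean value was 10 or more, 680 (7.09%) were called, 277 (2.89%) higher and 403 (4.2%) lower in edited cells. All these genes together had a median log2 fold change of 0.087. Fewer cells of a given type and less RNA per cell cannot be told apart in such bulk libraries.

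Of the 9 members, *BCL2L1* rose and *BMF* fell in edited cells, and the other 7 were not called. Among the 9590 genes, to which *BCL2L1* belongs, 7.09% were called. *BMF*, with a mean under 10, was taken from the fit over all 16811 genes, where 795 were called. In that fit *BCL2L1* was not called (adjusted p = 0.0512 from limma). All 5 listed BH3-only genes had lower values in both edited libraries than in both wild-type libraries. This pattern was found in 26.9% of the 9590 genes and in 30.2% of all 16811 genes. *MCL1* and *BAK1* overlapped between the groups, and *BAX* was higher in both edited libraries, as were 38.3% of the 9590 genes, without being called. The plot of values by library shows each of these genes.

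**Figure D1:**
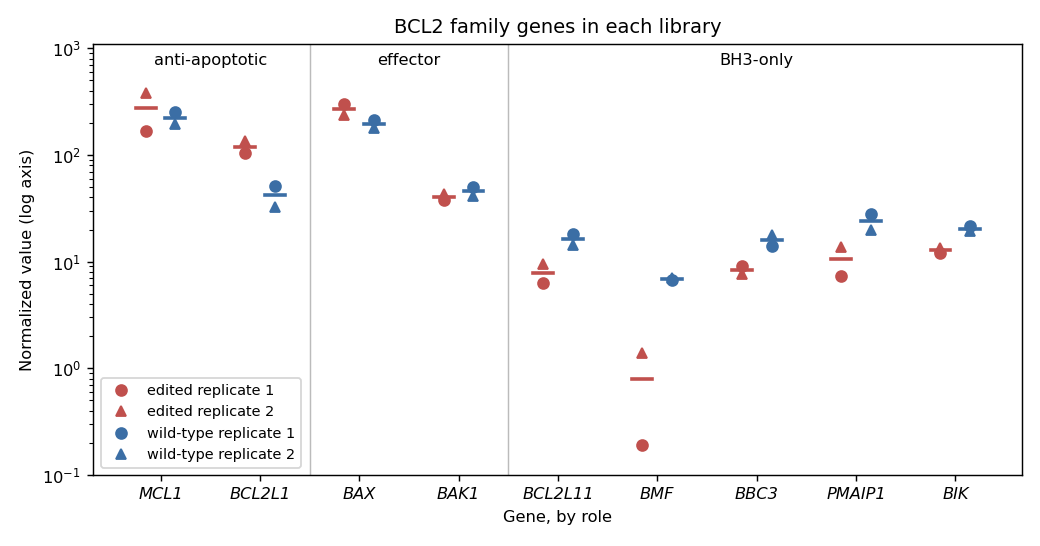
Normalised value (log axis) of each of the 9 measured BCL2 family genes in the 4 libraries, with the 2 edited and the 2 wild-type libraries as separate points and a horizontal line at each group mean. *BCL2L1* lies between 104 and 136 in edited cells and between 32.8 and 51.6 in wild-type cells, while the 5 BH3-only genes all lie lower in edited cells.

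*BCL2L1* encodes BCL-XL, an anti-apoptotic protein of the outer mitochondrial membrane (and, by splicing, the short pro-apoptotic form BCL-XS, which these gene-level values do not separate). The gene lies at chr20:30252255-30311792 on the minus strand of GRCh37. In edited replicates 1 and 2 its normalised value was 104 and 136, while wild-type replicates 1 and 2 stood at 51.6 and 32.8. Both edited libraries were farther above the wild-type libraries than the latter were from each other. Edited cells averaged 120 ± 22.9 (SD, n = 2) and wild-type cells 42.2 ± 13.3 (SD, n = 2), a ratio of 2.84. The log2 fold change was 1.50 (SE 0.28, 95% confidence interval 0.81 to 2.20, adjusted p = 0.0420 from limma). Among all genes of the table, *BCL2L1* stood at the 86th and 89th percentile of expression in edited libraries and at the 75th and 68th in wild-type libraries. The call was lost when genes of low value were kept in the fit (adjusted p = 0.0512) and when wild-type replicate 1 (adjusted p = 0.0809) or wild-type replicate 2 (adjusted p = 0.202) was left out, with log2 fold changes of 1.18 to 1.82 over all alternatives.

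Reads on *BCL2L1* can share positions with *ABALON*, a long non-coding RNA on the opposite strand whose exons overlap 1735 exonic bases of *BCL2L1*. Whether reads were counted by strand is not given in the sources used here. *ABALON* was at 1.98 and 3.59 in edited and at 0.715 and 0.311 in wild-type libraries, higher in both edited libraries and not called (adjusted p = 0.0816 from limma). Its values are far below those of *BCL2L1*. The genes that lie near *BCL2L1* on chromosome 20 did not show a difference of this size. Over the 11 other genes within 1 Mb with a mean of at least 10, the median log2 fold change was 0.23, with a range of -0.63 to 0.57, and 0 of them were called. The median of the 249 such genes of chromosome 20 was 0.22. The closest such genes on either side, *ID1* and *TPX2*, had log2 fold changes of -0.26 and 0.30.

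**Figure D2:**
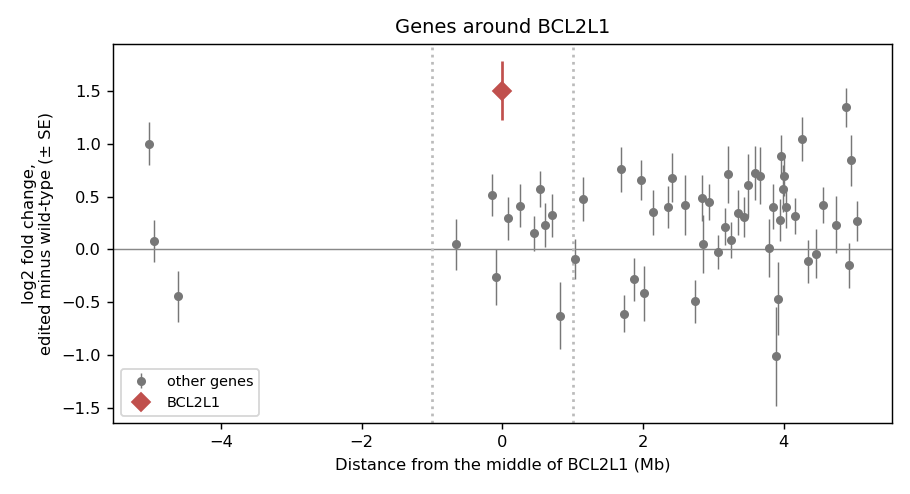
Log2 fold change (edited minus wild-type) of *BCL2L1* and of other genes of chromosome 20 with a mean value of at least 10, against distance in Mb from the middle of *BCL2L1*, with bars of 1 SE from limma and dotted lines at 1 Mb on either side. *BCL2L1* stands at 1.50, while the genes between the dotted lines lie between -0.63 and 0.57.

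*MCL1* encodes a short-lived anti-apoptotic protein that is turned over by the proteasome, and it was the most highly expressed anti-apoptotic gene measured. The gene lies at chr1:150533371-150552214 on the minus strand, on the same chromosome as the edited locus. Edited replicates 1 and 2 stood at 170 and 385, and wild-type replicates 1 and 2 at 254 and 195. The edited libraries stood on either side of both wild-type libraries. The edited mean was 277 ± 152 (SD, n = 2) and the wild-type mean 225 ± 41.5 (SD, n = 2). The log2 fold change was 0.20 (SE 0.41, 95% confidence interval -0.83 to 1.23, adjusted p = 0.774 from limma), and the interval leaves room for a change of either sign. Without edited replicate 2 it was -0.39, and after cyclic loess normalisation -0.065, so no direction is given. *MCL1* shares exonic bases with *ADAMTSL4* on the opposite strand (43 bases) and with *ADAMTSL4-AS1* on the same strand (328 bases). *ADAMTSL4* was at 55.1 and 43.1 in edited and at 18.4 and 20.0 in wild-type libraries. It was called higher (log2 fold change 1.30, adjusted p = 0.0262 from limma), while the values of *ADAMTSL4-AS1* overlapped between the groups.

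Set side by side within each library, the 2 anti-apoptotic genes differed in proportion between the groups. *BCL2L1* made up 37.9% and 26.1% of the summed level of *MCL1* and *BCL2L1* in edited libraries and 16.9% and 14.4% in wild-type libraries. The groups did not overlap. The mean share was 32.0% ± 8.35 (SD, n = 2) against 15.6% ± 1.78 (SD, n = 2). A two-sided exact permutation test gave p = 0.333, which is the smallest p that 2 against 2 libraries allow. The summed level of both genes was 273 and 521 in edited and 306 and 228 in wild-type libraries, and these overlapped. The share was made of levels of RNA, and the proteins were not measured.

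*BCL2L2*, which encodes the anti-apoptotic protein BCL-W and is not on the list of 10, fell in edited cells. Its value was 28.1 and 33.6 in edited and 72.7 and 71.2 in wild-type libraries. The edited libraries were both below the wild-type libraries, with a mean of 30.9 ± 3.83 (SD, n = 2) against 71.9 ± 1.13 (SD, n = 2), a ratio of 2.33. The log2 fold change was -1.20 (SE 0.18, adjusted p = 0.0262 from limma). Leaving out edited replicate 1 (adjusted p = 0.0599), wild-type replicate 1 (adjusted p = 0.0960) or wild-type replicate 2 (adjusted p = 0.170) ended the call.

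With *BCL2L2* added to the sum of *MCL1* and *BCL2L1*, *BCL2L1* took 34.4% and 24.5% of it in edited and 13.6% and 11.0% in wild-type libraries. *BCL2L2* took 9.35% and 6.06% in edited and 19.2% and 23.8% in wild-type libraries. Both of these shares kept the groups apart. The share of *MCL1* was 56.3% and 69.4% in edited and 67.1% and 65.3% in wild-type libraries and overlapped, whereas without *BCL2L2* in the sum it was lower in both edited libraries. *BCL2L2* lies at chr14:23767999-23780960, among genes that were lower in edited cells as well. The 43 genes within 1 Mb of it had a median log2 fold change of -0.48, and 7 of them were called, all lower. The 311 genes of chromosome 14 had a median of -0.46, which is 0.54 below the median of all genes. *BCL2L2* shares 815 exonic bases with the read-through gene *BCL2L2-PABPN1*, whose values overlapped between the groups, and 149 with *HOMEZ* on the opposite strand, which also fell. The part of the chromosome in the value of *BCL2L2* was not tested.

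**Figure D3:**
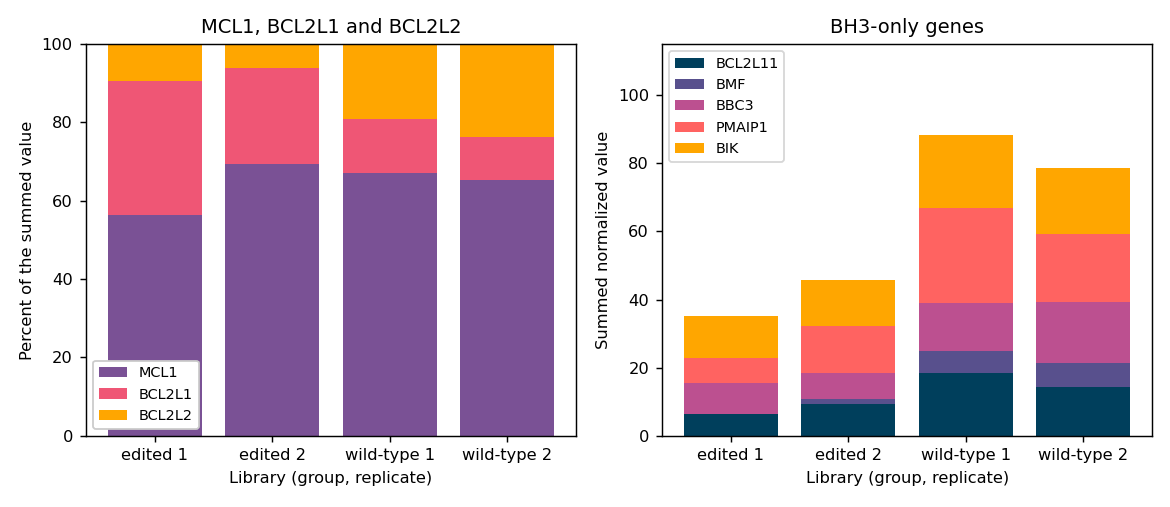
Left panel, percent of the summed normalised level of *MCL1*, *BCL2L1* and *BCL2L2* taken by each gene in the 4 libraries. Right panel, summed normalised level of the 5 listed BH3-only genes as stacked bars from 0, without *BAD*, *BID* and *HRK*. There the edited libraries reach 35.0 and 45.7 and the wild-type libraries 88.4 and 78.5.

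The effectors *BAX* and *BAK1* encode the pore-forming proteins, either of which can open the membrane. Neither was called. *BAX* lies at chr19:49458072-49465055 on the plus strand and was at 302 and 236 in edited and at 213 and 180 in wild-type libraries. Both edited values were above both wild-type values, a pattern that 38.3% of all 9590 genes shared. The edited mean was 269 ± 47.2 (SD, n = 2) and the wild-type mean 196 ± 23.4 (SD, n = 2), with a log2 fold change of 0.45 (SE 0.23, 95% confidence interval -0.12 to 1.02, adjusted p = 0.233 from limma).

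*BAK1* lies at chr6:33540324-33548070 on the minus strand and was at 37.6 and 42.8 in edited and at 50.2 and 41.0 in wild-type libraries, which overlapped. Its log2 fold change was -0.17 (SE 0.19, 95% confidence interval -0.64 to 0.30, adjusted p = 0.563 from limma). The annotation names a pair of processed pseudogene copies of *BAK1*, and how reads were divided among them is not given in the sources used here. In every library *BAX* was the more abundant effector. Its level was 8.03 and 5.51 times that of *BAK1* in edited and 4.24 and 4.39 times in wild-type libraries (mean 6.77 ± 1.78 against 4.31 ± 0.102, SD, n = 2 each, two-sided exact permutation p = 0.333, the smallest possible).

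All 5 BH3-only genes had negative log2 fold changes, from -2.22 to -0.64 with a median of -0.98, against 0.087 for all genes with a mean of at least 10. One of the 5, *BMF*, was called. Each of the 5 had an unadjusted p under 0.05. Such a p with a lower level in edited cells was found for 13.6% of the 9590 genes, to which the other 4 belong, and for 15% of all 16811 genes, among which *BMF* was tested. Both edited libraries were below both wild-type libraries for each of the 5, a pattern found in 26.9% of the 9590 genes and in 30.2% of all 16811 genes. The plot of log2 fold changes sets the 9 members beside each other.

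**Figure D4:**
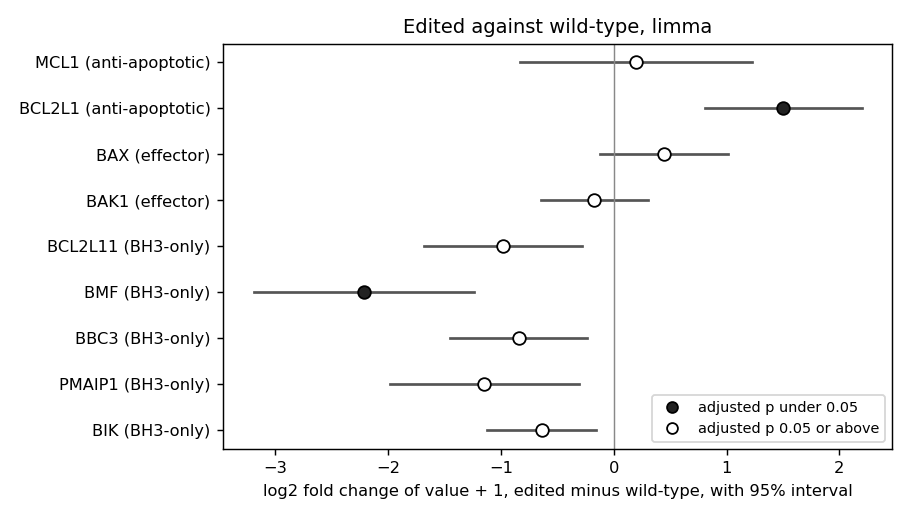
Log2 fold change (edited minus wild-type) of the 9 measured members, grouped by role, with 95% confidence intervals from limma, a vertical line at 0 and filled points for called genes. *BCL2L1* (1.50) and *BMF* (-2.22) were called, and the intervals of the other 4 BH3-only genes also lie below 0 while their adjusted p-values were between 0.0852 and 0.0916.

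*BMF* encodes a BH3-only protein that is held at the cytoskeleton and released when cells detach from the matrix. It lies at chr15:40380091-40401093 on the minus strand and carries the 2 seed matches shown above. Its value was 0.189 and 1.40 in edited and 6.68 and 7.02 in wild-type libraries, about 8 and 67 reads against 267 and 302 reads. The wild-type libraries were close together and both edited libraries were far below them. The mean was 0.794 ± 0.856 (SD, n = 2) against 6.85 ± 0.238 (SD, n = 2), a ratio of 8.62. On the log2(value + 1) scale, which understates the change of a gene this low, the log2 fold change was -2.22 (SE 0.39, 95% confidence interval -3.19 to -1.24, adjusted p = 0.0463 from limma). Since its mean was under 10, *BMF* was tested among all 16811 genes, where 3.4% were called lower.

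In wild-type cells *BMF* stood at the 36th percentile of all genes in both libraries, and in edited cells at the 1st and the 13th. The call was lost at a pseudocount of 0.1 (log2 fold change -3.40, adjusted p = 0.0830), after quantile normalisation (adjusted p = 0.0503), and when edited replicate 1 (adjusted p = 0.134), wild-type replicate 1 (adjusted p = 0.150) or wild-type replicate 2 (adjusted p = 0.247) was left out. The direction was negative under every alternative run. With both edited values below both wild-type values, no pseudocount, filter, replicate block or omitted library could have changed it. The 20 genes within 1 Mb of *BMF* had a median log2 fold change of 0.021, with a range of -2.89 to 2.31. Of these, 2 were called lower and 0 higher. An antisense gene, *BMF-AS1*, overlaps 461 exonic bases and was not analysed here.

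*PMAIP1* encodes NOXA, a BH3-only protein induced by p53 that binds MCL1. It lies at chr18:57567228-57571537 on the plus strand. Its value was 7.35 and 13.7 in edited and 27.9 and 19.9 in wild-type libraries, with means of 10.5 ± 4.49 and 23.9 ± 5.66 (SD, n = 2 each). Both edited values were below both wild-type values, by a ratio of 2.27 in the means. The log2 fold change was -1.15 (SE 0.34, 95% confidence interval -1.99 to -0.31, adjusted p = 0.0878 from limma). Its adjusted p was 0.0200 without edited replicate 2, a fit in which the lone edited library is assumed to vary like the wild-type pair, and 0.229 to 0.246 when any other library was left out.

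*BCL2L11* encodes BIM, which can bind all anti-apoptotic members and activate the effectors. It lies at chr2:111876955-111926021 on the plus strand. Its value was 6.31 and 9.42 in edited and 18.3 and 14.3 in wild-type libraries, with means of 7.86 ± 2.20 and 16.3 ± 2.82 (SD, n = 2 each). The groups did not overlap and the wild-type mean was 2.08 times the edited mean. The log2 fold change was -0.98 (SE 0.28, 95% confidence interval -1.68 to -0.28, adjusted p = 0.0852 from limma). Under the same assumption its adjusted p was 0.0474 without edited replicate 2, and it was 0.234 to 0.254 when any other library was left out.

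*BBC3* encodes PUMA, a main mediator of death downstream of p53. It lies at chr19:47724079-47736023 on the minus strand and carries 1 seed match. Its value was 9.12 and 7.69 in edited and 14.0 and 17.9 in wild-type libraries, with means of 8.40 ± 1.01 and 15.9 ± 2.74 (SD, n = 2 each). The edited values were both lower, with a log2 fold change of -0.84 (SE 0.24, 95% confidence interval -1.45 to -0.24, adjusted p = 0.0856 from limma).

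*BIK* encodes a BH3-only protein found mostly at the endoplasmic reticulum. It lies at chr22:43506756-43525718 on the plus strand. Its value was 12.0 and 13.4 in edited and 21.5 and 19.3 in wild-type libraries, with means of 12.7 ± 0.980 and 20.4 ± 1.51 (SD, n = 2 each). The replicates of each group lay close together, and the difference was the smallest of the 5 on the log2 scale. The log2 fold change was -0.64 (SE 0.19, 95% confidence interval -1.12 to -0.16, adjusted p = 0.0916 from limma).

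Summed over the 5 listed genes, the level was 35.0 and 45.7 in edited and 88.4 and 78.5 in wild-type libraries. The mean was 40.3 ± 7.52 (SD, n = 2) against 83.4 ± 7.01 (SD, n = 2), and the two-sided exact permutation test gave its smallest possible p of 0.333. *BMF* made up 0.540% and 3.07% of it in edited and 7.56% and 8.95% in wild-type libraries. *BIK* made up 34.4% and 29.4% in edited and 24.3% and 24.7% in wild-type libraries. These shares of *BMF* and *BIK* kept the groups apart. The shares of *BCL2L11*, *BBC3* and *PMAIP1* overlapped, with *BCL2L11* between 18.0% and 20.7% in all 4 libraries. The sum over the 5 genes leaves out the measured BH3-only genes *BAD*, *BID* and *HRK*. *BAD* alone, at 147 and 106 in edited and 102 and 80.3 in wild-type libraries, was above that sum in every library. *BID* was at 23.2 and 33.5 against 35.9 and 35.3, and *HRK* overlapped. The sum is therefore not the total BH3-only level.

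Among the members with a seed match, *BMF* fell and the other 3 were not called. *BBC3* and *BAK1* had log2 fold changes of -0.84 and -0.17, and that of *MCL1* was 0.20, with a sign that differed between settings as given above. The one member that rose, *BCL2L1*, had no match. Among 26 other known targets of miR-29, 19 were in the table, with 9 positive and 10 negative log2 fold changes and a median of -0.082. Both edited libraries were below both wild-type libraries for 9 of the 19 and above them for 3, while 7 overlapped. Among the 9590 genes, 26.9% were below and 38.3% above in this way, and 30.2% of all 16811 genes were below. Of the 19 targets 2 were called, against 7.09% of the 9590 genes. In this list *PIK3R1*, a regulatory subunit of PI3-kinase, rose (50.5 and 49.4 in edited against 17.2 and 25.1 in wild-type libraries, adjusted p = 0.0403 from limma with a log2 fold change of 1.22). *COL1A1*, a chain of fibrillar collagen, fell (3.19 and 5.58 against 15.6 and 28.1, log2 fold change -2.06, adjusted p = 0.0420). *FBN1* and *DICER1* had log2 fold changes of 1.80 and -0.88 and were not called. Both calls were lost when any library but edited replicate 2 was left out. The level of miR-29 itself was not analysed here.

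Of 13 further BCL2 family genes, 10 were in the table. One was called, *BCL2L2*, and the median log2 fold change was -0.069. The BH3-only genes among them did not go one way. *BAD*, whose protein binds BCL-XL, was at 147 and 106 in edited and at 102 and 80.3 in wild-type libraries (adjusted p = 0.259 for a log2 fold change of 0.45). *BID*, the link from death receptors to mitochondria, had a log2 fold change of -0.34 (adjusted p = 0.326), and *HRK*, whose 3′ UTR holds 4 seed matches, was below 1.6 in every library and overlapped. The effector relative *BOK* overlapped between the groups (log2 fold change 0.41, adjusted p = 0.486 from limma). *BCL2L10*, an anti-apoptotic relative, was at 0.998 and 0.954 in edited and at 1.76 and 1.85 in wild-type libraries (adjusted p = 0.234 for a log2 fold change of -0.51). *BCL2L12* was at 85.6 and 71.9 in edited and at 65.9 and 56.3 in wild-type libraries (adjusted p = 0.257 for a log2 fold change of 0.36). Neither was called, although the groups did not overlap. *BNIP3*, *BNIP3L* and *BCL2L13*, which encode receptors for the removal of mitochondria, had log2 fold changes of 0.20, -0.0905 and -0.047, with no call.

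In the wider apoptosis pathway, 62 of 65 listed genes were in the table, these 10 included. By limma 0 were called higher and 4 lower (16 had an unadjusted p under 0.05), with a median log2 fold change of -0.026. Among the 9590 genes 7.09% were called and 32.3% had an unadjusted p under 0.05, so these counts in either direction are not above that background. The share called lower, the direction of all 4 calls, was 4.2% of the 9590 genes and 3.4% of all 16811. Of the 62 genes, 54 were among the 9590. Whether 4 lower calls exceed these shares was not tested. The 3 called genes outside the BCL2 family come from the lists of the death receptor arm and of inhibitors of apoptosis. As a whole, the 11 genes of the death receptor arm had 6 positive and 5 negative log2 fold changes (median 0.083). The 6 inhibitors of apoptosis had 2 positive and 4 negative ones (median -0.24). *TNFSF10* encodes TRAIL, a ligand of death receptors, and was at 1.23 and 6.78 in edited and at 208 and 142 in wild-type libraries. Its wild-type mean was 43.8 times its edited mean (log2 fold change -5.38, SE 0.58, adjusted p = 0.0132 from limma). *BIRC3*, which encodes the inhibitor of apoptosis cIAP2, was at 2.02 and 5.67 in edited and at 32.2 and 58.0 in wild-type libraries (log2 fold change -3.30, SE 0.47, adjusted p = 0.0243). *CASP10*, an initiator caspase of death receptors, was at 1.51 and 1.60 in edited and at 11.8 and 13.9 in wild-type libraries (log2 fold change -2.44, SE 0.22, adjusted p = 0.0158). All 3 calls were lost when either wild-type library (replicate 1 or 2) was left out, with adjusted p-values of 0.0764 to 0.182, and that of *CASP10* also without edited replicate 1 (adjusted p = 0.0787).

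In the remaining apoptosis lists no gene was called. The 13 genes of the apoptosome and the caspases had a median log2 fold change of 0.25. Among them *AIFM1*, which encodes a mitochondrial flavoprotein, was at 192 and 142 in edited and at 86.0 and 83.8 in wild-type libraries (adjusted p = 0.0610 from limma for a log2 fold change of 0.95). The 6 genes of mitochondrial channels and fission had a median of 0.32, and the outer membrane channels *VDAC1* and *VDAC3* were higher in both edited libraries (log2 fold changes 0.82 and 0.78, adjusted p = 0.0858 and 0.114). The 10 transcription regulators of the members had a median of -0.15 and held no call, with *E2F1* at 1.28 (adjusted p = 0.0824) and *TP73* at -0.77 (adjusted p = 0.117). The 6 genes of MCL1 protein turnover had a median of -0.18 and held no call either.

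**Figure D5:**
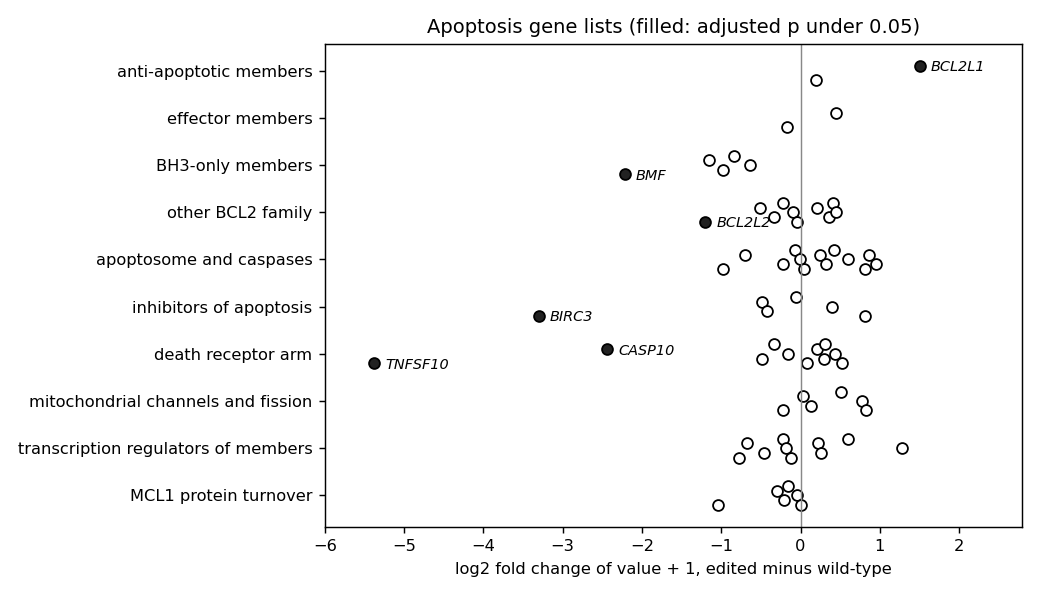
Log2 fold change (edited minus wild-type) of each measured gene of the BCL2 family and of the other apoptosis lists, 1 row per list, with called genes (adjusted p under 0.05) filled and a vertical line at 0. Points are shifted up or down within a row only to keep them apart. *BCL2L1* is the only filled point to the right of 0, and *TNFSF10* at -5.38 is the lowest.

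The libraries differed in cell-state markers along with these genes. All 12 epithelial markers were in the table, and 7 were called, 6 lower and 1 higher, with a median log2 fold change of -2.34 and a summed level of 5289 to 7685 in edited and 13149 to 21413 in wild-type libraries. *CDH1*, which encodes E-cadherin, was at 3.89 and 1.54 in edited and at 150 and 123 in wild-type libraries, while the keratin gene *KRT5* was still at 3514 and 3056 against 4590 and 11914. Of 11 mesenchymal markers 8 were in the table, and 4 were called, with *VIM*, *CDH2* and *ZEB1* higher and *COL1A1* lower. Their summed level was 1072 and 5057 in edited and 1001 and 611 in wild-type libraries, and *FN1* alone made up most of the difference between the edited libraries (171 and 3735). *MCL1* was also higher in edited replicate 2 than in edited replicate 1. None of 8 blood and endothelial markers was analysed here. The part of this shift in the values of the BCL2 family genes was not tested.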

How the data were processed

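Poly(A) RNA of 2 edited and 2 wild-type MCF12A cultures was sequenced (single-end reads). The submitters' processing notes name hg38, HISAT2 and Salmon without versions. The authors deposited 1 table of 16811 gene symbols with a normalised signal per library, which the file shows to be scaled for transcript length. It is not a table of counts. The labels number the libraries of a group as replicates, and the study calls them biological replicates.

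The 9590 genes with a mean of at least 10 were tested with limma 3.58.1 in R 4.3.3 (lmFit, eBayes with trend) on log2(value + 1) without covariates, p-values being adjusted by Benjamini-Hochberg and called under 0.05. Genes under that mean were taken from the same fit over all 16811 genes. Ratios and sums were compared with two-sided exact permutation tests.

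Positions, overlaps and 3′ UTRs came from GENCODE 44 on GRCh37, to which 13340 symbols were matched (12608 directly). The table holds no coordinates. Depth was estimated from the steps of single-transcript genes, and the next-best solution differed by a factor of about 2 in edited replicate 2. The estimate covers counting error only.

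The members and all gene lists were chosen with earlier results of these data known. Every measured member and every other measured BCL2 family gene is named. Of each other list, called genes (at most the 4 with the largest log2 fold change) and up to 2 that were not called are named. One gene that this rule names is not reported here. *ID1*, *TPX2*, *ABALON*, *HOMEZ*, *ADAMTSL4*, *ADAMTSL4-AS1* and *BCL2L2-PABPN1* were named for their position. Alternatives covered the threshold, pseudocount, filter, scaling, variance trend, replicate block and leaving out each library.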

Additional observations from a re-analysis of the deposited data

How the results depend on the processing

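The number of members called was 2. It was 0 at an adjusted p under 0.001 and 0 with the replicate block (limma, with 6 members at an unadjusted p under 0.05 in each), and 1 at a pseudocount of 0.1, with no filter, with quantile normalisation and at a mean of at least 50, where 3 members were tested. It ranged from 0 to 4 as each library was left out, being 1 without edited replicate 1, 4 without edited replicate 2 and 0 without either wild-type library, where 3 and 5 members had an unadjusted p under 0.05. Over all genes, 680 calls became 1 at 0.001, 419 at a mean of at least 50 and 133 with the block, and 4 to 1431 with a library left out. The other apoptosis genes had 4 calls, against 0 at 0.001 (16 at an unadjusted p under 0.05), 1 with the block and 0 to 6 with a library left out. The other miR-29 targets had 2 calls, against 0 at 0.001, at a mean of at least 50 and with the block, 1 with no filter, equal library totals, quantile or cyclic loess normalisation, and 0 to 2 with a library left out. At 0.001 and with the block 4 of these targets had an unadjusted p under 0.05, and at a mean of at least 50, where 3 were tested, 0 had. The cause of these differences was not tested beyond the fewer genes or libraries that a filter or an omission leaves.

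With the block the calls of *BCL2L1* (adjusted p = 0.0807), *BMF* (0.0714), *BCL2L2* (0.0661), *TNFSF10* (0.0566) and *CASP10* (0.0544) were lost. In each fit without 1 library, the lone library of its group is assumed to vary like the other group.

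Of 120 values of members under alternatives, 105 kept their direction and side of the threshold, 10 lost the call, 3 gained one and 2 changed sign. The sign changed for *MCL1* after cyclic loess normalisation (-0.065) and without edited replicate 2 (-0.39, range -0.39 to 0.79 over omitted libraries). Among other genes it changed for *HRK* (-0.63 to 0.19), *BNIP3L* (-0.47 to 0.29), *BCL2L13* (-0.12 to 0.024, and 0.020 without wild-type replicate 1) and *FN1* (-1.39 to 3.05) as libraries were left out. With *BCL2L2* in the sum, the wild-type share of *MCL1* moved from 84.4% to 66.2% and that of *BCL2L1* from 15.6% to 12.3%. The median of all genes was 0.087, -0.029 with equal library totals and -0.0088 after cyclic loess normalisation. With equal library totals 234 genes were called higher and 500 lower.

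Replicate numbers are shared between groups without a stated common source, and deviations of same-numbered libraries correlated at -0.14 over 9590 genes. With the crossed pairing, chosen after seeing the data, 3 members, 1002 genes in all, 5 other apoptosis genes and 2 other targets were called. Depth limits *BMF* most, with about 8 reads in edited replicate 1.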
